A study of Mus musculus with 8 samples.

Results

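The 8 genes described here are those tied to myotonic dystrophy: *Dmpk*, its neighbour *Six5*, the muscleblind genes *Mbnl1*, *Mbnl2* and *Mbnl3*, the CELF genes *Celf1* and *Celf2*, and the chloride channel gene *Clcn1*. They were chosen by name, for their part in the disease, but with earlier results of these data known. Each of the 8 had 1 probe set among the 22206 probe sets of the table. The samples were gastrocnemius (GAS) muscles of male C57/Bl6j mice, 4 per group. An adeno-associated virus (AAV) of serotype 1 was injected into the muscle at about 10 weeks of age, and RNA was taken 12 weeks later, when mice were 22 weeks old. In the MYTHO-KD group the virus carried, under a U6 promoter, a short hairpin RNA (sh-RNA) against the transcript that encodes MYTHO. In the scramble group it carried a scramble sh-RNA under the same promoter, injected into the opposite leg, so that both groups had received a virus and a hairpin. The U6 promoter is not specific to muscle fibres, and RNA was extracted from whole pieces of muscle.

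Myotonic dystrophy type 1 is caused by an expanded CTG repeat in the 3′ untranslated region of the human gene *DMPK*. The repeat RNA collects in the nucleus and holds muscleblind (MBNL) proteins, which control the switch from fetal to adult splicing in muscle, while CELF1, which often acts on the same exons in the opposite direction, becomes more abundant. Missplicing of the *CLCN1* transcript then lowers the chloride conductance of the fibre membrane, which gives myotonia. The mice studied here carry no such repeat by design. The study compared MYTHO-KD muscle with this disease because of several shared features, among them weakness, uneven fibre size, central nuclei and abnormal ultrastructure. The comparison made here asks whether the transcripts of the disease genes themselves differed between MYTHO-KD and scramble muscles. The arrays give 1 value per gene and do not measure splicing.

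Of the 8 transcripts, 3 were lower and 1 was higher in MYTHO-KD than in scramble muscles when the limit was an unadjusted p under 0.05 (moderated test of limma). *Celf2*, *Clcn1* and *Mbnl1* were lower, at 55.1%, 63.3% and 69.3% of the scramble signal, and *Mbnl2* was higher, at 130.1%. *Dmpk* itself stood at 99.3%, and *Celf1*, *Six5* and *Mbnl3* did not pass either. The 4 of 8 genes that passed compare with 12.0% of all probe sets. Since earlier results were known when the genes were chosen, these shares were not tested against each other. By direction, 3 of 8 were lower, against 5.52% of all probe sets, and 1 of 8 higher, against 6.48%. None of the 8 reached 2-fold at that p, which 1.12% of probe sets did, and none had an adjusted p under 0.05 (Benjamini-Hochberg over all probe sets), which 0.275% did. The lowest adjusted p of the group was 0.149, so that each of the 4 differences stands on its unadjusted p. In RNA from whole muscle, fewer cells of a type and less RNA per cell cannot be told apart.

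**Figure D1:**
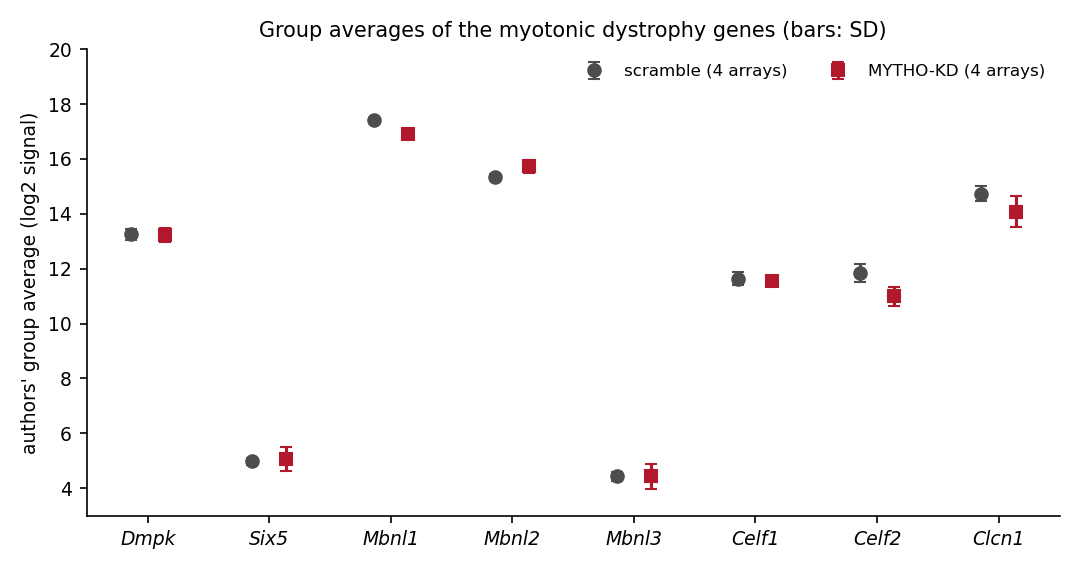
Average log2 signal in the deposited table (vertical axis) of either group for the 8 genes, with the deposited SD over 4 arrays as bars. *Celf2* (11.85 in scramble, 10.99 in MYTHO-KD) and *Clcn1* (14.74 and 14.08) stand lower in MYTHO-KD, while the symbols of *Dmpk*, *Six5*, *Mbnl3* and *Celf1* overlap.

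The knockdown was seen in the same table. *Mytho*, listed there by its earlier symbol *D230025D16Rik*, had an average of 10.02 (log2, SD 0.37) in scramble and 7.71 (SD 0.66) in MYTHO-KD. It was the one of the genes named so far that passed the adjustment (log2 difference -2.31, standard error 0.304, adjusted p = 0.0138, limma). Values of single arrays were not used here, since the table gives an average and an SD for each group. Whether the arrays of both groups overlap can therefore be read only from the distance between averages beside the SDs. The median difference over all probe sets was -0.01 (log2), and the median SD was 0.27 in either group.

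Among the muscleblind genes, *Mbnl1* was lower and *Mbnl2* higher in MYTHO-KD. *Mbnl1*, which encodes the main muscleblind protein of adult muscle, lies on chromosome 3 from 60472830 to 60629748 (mm10, plus strand). Its average was 17.43 (log2, SD 0.08) in scramble and 16.90 (SD 0.12) in MYTHO-KD. The averages were thus 0.53 apart, several times either SD, and the arrays of each group lay close together. Of the probe sets of like signal, 8.01% had a lower pooled SD. Like signal here means the brightest of 20 bins by rank, which is wide. It holds *Cdh5* at a mean of 13.035 (log2) and probe sets at the top of the scale, such as *Acta1* at 19.93 with an SD of 0. The log2 difference of *Mbnl1* was -0.53 (standard error 0.150, 95% interval -0.86 to -0.20), with an unadjusted p of 0.00422 and an adjusted p of 0.179 in limma's moderated test. *Mbnl2*, a paralog with overlapping targets, lies on chromosome 14 from 120275669 to 120431698 (plus strand). It had 15.35 (log2, SD 0.12) in scramble and 15.73 (SD 0.23) in MYTHO-KD. Its log2 difference of 0.38 (standard error 0.169) came close to the threshold, with an unadjusted p of 0.0439, an adjusted p of 0.402 in limma's test and a 95% interval of 0.01 to 0.75.

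*Mbnl3*, which is known from myoblasts and fetal tissue more than from adult fibres, lies on chromosome X from 51113494 to 51206532 (minus strand). Its average was 4.43 (log2) in both groups, near the floor of the arrays, with an SD of 0.15 in scramble and 0.46 in MYTHO-KD. The authors' software marked it as expressed in scramble but not in MYTHO-KD, the one mark of that kind among the 8 genes. The 95% interval of its log2 difference ran from -0.49 to 0.49. A fall from this level could hardly be seen.

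The difference between *Mbnl1* and *Mbnl2* was tested directly, as 1 of 5 pairs of members. The log2 difference of *Mbnl1* was lower than that of *Mbnl2* by 0.91 (standard error 0.226, 95% interval of *Mbnl1* minus *Mbnl2* -1.40 to -0.42, adjusted p = 0.00854 over 5 pairs). *Mbnl1* against *Mbnl3* gave -0.53 (95% interval -1.12 to 0.06, adjusted p = 0.12) and *Mbnl2* against *Mbnl3* gave 0.38 (95% interval -0.23 to 0.99, adjusted p = 0.249). These tests take 2 genes to vary independently over the arrays, which group averages cannot show. With the widest error that any dependence allows, the unadjusted p of the *Mbnl1* and *Mbnl2* pair was 0.0146 and its adjusted p 0.0732.

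**Figure D2:**
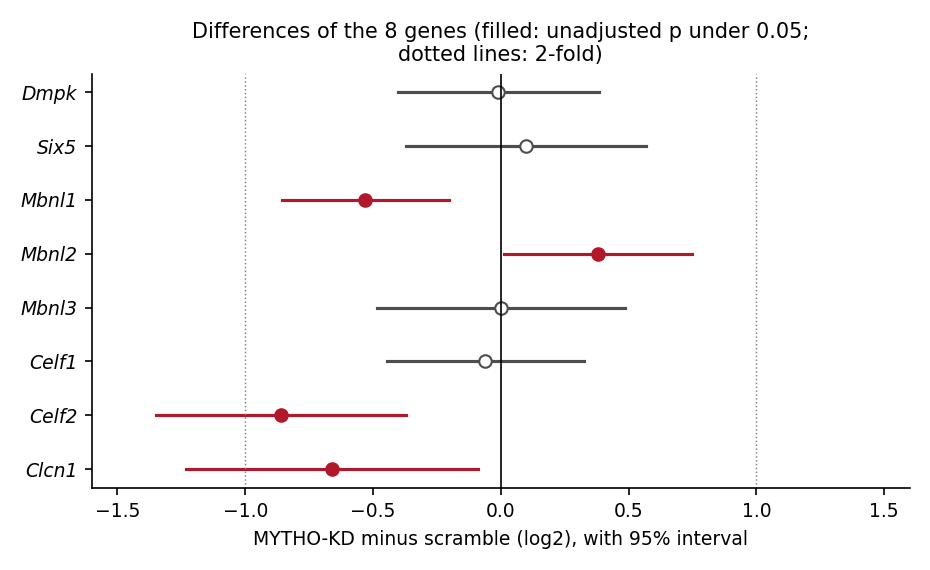
Log2 difference between MYTHO-KD and scramble (horizontal axis) for each of the 8 genes, with its 95% interval from limma's moderated variance. The intervals of *Mbnl1*, *Celf2* and *Clcn1* lie below 0, that of *Mbnl2* begins at 0.01, and the other 4 intervals include 0.

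Of the CELF genes of the disease, *Celf2* was lower and *Celf1* did not pass. *Celf2*, which encodes a splicing and mRNA stability factor, lies on chromosome 2 from 6539694 to 7509563 (minus strand). Its average was 11.85 (log2, SD 0.33) in scramble and 10.99 (SD 0.36) in MYTHO-KD. This was the largest difference among the 8 genes in either direction, -0.86 on the log2 scale (standard error 0.224, 95% interval -1.35 to -0.37). Its unadjusted p was 0.0024 and its adjusted p 0.149 in limma's moderated test, and 355 probe sets of the table had a lower p. *Celf1*, the family member whose protein is raised in the disease, lies on the same chromosome from 90940382 to 91019497 (plus strand). It had 11.63 (log2, SD 0.24) in scramble and 11.57 (SD 0.18) in MYTHO-KD. The log2 difference of *Celf1* was -0.06, with a 95% interval of -0.45 to 0.33, so that a rise of the *Celf1* transcript above 125.4% of scramble lies outside the interval. The CELF1 protein, which is regulated after transcription, was not measured. *Celf1* minus *Celf2* was 0.80 (95% interval 0.18 to 1.42, adjusted p = 0.0402 over 5 pairs). This call was lost without moderation of the variance (adjusted p = 0.0788) and with the widest error allowed (adjusted p = 0.174).

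*Clcn1* encodes ClC-1, the chloride channel that stabilises the resting potential of the fibre. It lies on chromosome 6 from 42286685 to 42315756 (plus strand). Its average was 14.74 (log2, SD 0.26) in scramble and 14.08 (SD 0.56) in MYTHO-KD. The MYTHO-KD muscles were less alike in this transcript than in most others of the brightest bin. There the median SD of MYTHO-KD was 0.21, and 92.3% of probe sets had a lower pooled SD than *Clcn1*. That bin is the wide one described for *Mbnl1*, which includes probe sets at the top of the scale. The log2 difference was -0.66 (standard error 0.261, 95% interval -1.23 to -0.09), with an unadjusted p of 0.0267 and an adjusted p of 0.341 in limma's moderated test. The call was lost when the variance was not moderated (unadjusted p of 0.0764) and with unequal variances (0.0955). Whether 1 MYTHO-KD muscle carried the difference was not tested, since single arrays were not used.

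*Dmpk* encodes a serine/threonine kinase of muscle and lies on chromosome 7 from 19083849 to 19093821 (plus strand). Its average was 13.25 (log2, SD 0.19) in scramble and 13.24 (SD 0.25) in MYTHO-KD, the smallest difference among the members with a nonzero one. The 95% interval of its log2 difference, -0.40 to 0.38, corresponds to 75.6% to 130.4% of the scramble signal. *Six5*, a homeobox gene that starts downstream of *Dmpk* on the same strand, from 19094544 to 19098549, had 4.98 (log2, SD 0.12) in scramble and 5.08 (SD 0.44) in MYTHO-KD. Both averages of *Six5* lie below 5.715, the level under which 30% of probe sets fall, and its interval ran from -0.37 to 0.57. The *Dmpk* and *Six5* differences were not told apart (*Dmpk* minus *Six5* -0.11, 95% interval -0.72 to 0.50, adjusted p = 0.702 over 5 pairs).

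In type 1 disease the repeat also affects the genes around it. Of the 16 probe sets nearest *Dmpk*, 8 on each side, none passed an unadjusted p under 0.05, where 12.0% of all probe sets did. Their log2 differences lay between -0.34 and 0.40. Most of the 16 were dim, below 5.715 like *Six5*, for example *Fbxo46* at 4.64 in scramble and 4.63 in MYTHO-KD. A fall of such genes could hardly be seen. The highest was that of *Dmwd*, which ends just upstream of *Dmpk*, with 10.19 (SD 0.28) in scramble and 10.59 (SD 0.23) in MYTHO-KD and an unadjusted p of 0.0586 (limma, adjusted p = 0.435). Of a list of 10 genes of this locus, 4 were higher and 6 lower, with a median of -0.01.

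**Figure D3:**
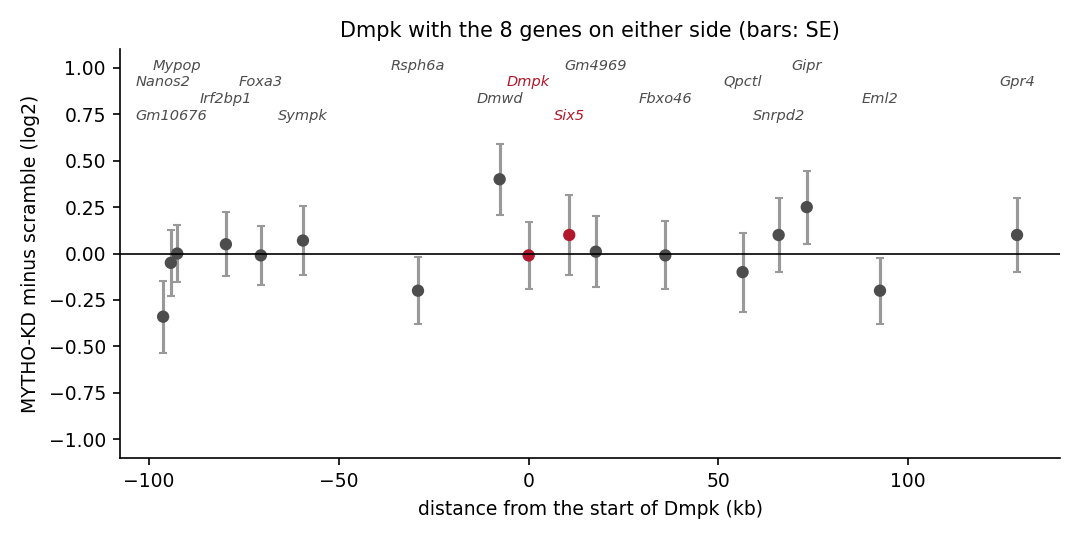
Log2 difference (vertical axis) of *Dmpk*, *Six5* (red) and the other genes among the 8 on either side, by distance of each gene's start from that of *Dmpk* in kb; bars are standard errors. The values scatter around 0, from -0.34 for *Nanos2* to 0.40 for *Dmwd*.

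For the 4 genes that passed, the bases upstream of their RefSeq start sites are shown (GRCm38.p6, 250 bases each, 5′ to 3′ on the gene's strand), because the paralogs *Mbnl1* and *Mbnl2* differed in opposite directions. Capitals mark E-boxes (CANNTG, the core letters bound by muscle bHLH factors such as MyoD) and GC boxes (GGGCGG or its reverse complement, the core letters bound by Sp1). Both strands were searched. For *Mbnl1* both annotated starts are given, for *Mbnl2* and *Clcn1* the one start annotated, and for *Celf2* the outermost of 5.
Mbnl1, outer start, chr3:60472580-60472829 (plus strand): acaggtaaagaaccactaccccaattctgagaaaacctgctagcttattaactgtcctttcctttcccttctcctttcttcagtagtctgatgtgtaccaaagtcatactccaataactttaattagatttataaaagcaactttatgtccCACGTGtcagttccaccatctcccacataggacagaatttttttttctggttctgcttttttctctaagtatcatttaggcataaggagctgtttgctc
Mbnl1, inner start, chr3:60500929-60501178 (plus strand): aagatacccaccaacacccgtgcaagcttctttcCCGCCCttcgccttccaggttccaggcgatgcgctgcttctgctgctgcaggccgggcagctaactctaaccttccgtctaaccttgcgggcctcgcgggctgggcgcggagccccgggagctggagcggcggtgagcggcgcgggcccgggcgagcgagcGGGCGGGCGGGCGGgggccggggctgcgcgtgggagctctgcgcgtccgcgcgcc
Mbnl2, chr14:120275419-120275668 (plus strand): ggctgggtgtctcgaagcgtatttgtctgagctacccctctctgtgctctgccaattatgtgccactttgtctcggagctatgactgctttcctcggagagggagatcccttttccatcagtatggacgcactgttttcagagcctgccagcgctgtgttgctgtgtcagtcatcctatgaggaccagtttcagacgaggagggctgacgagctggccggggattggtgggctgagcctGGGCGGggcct
Celf2, outermost start, chr2:7396199-7396448 (minus strand): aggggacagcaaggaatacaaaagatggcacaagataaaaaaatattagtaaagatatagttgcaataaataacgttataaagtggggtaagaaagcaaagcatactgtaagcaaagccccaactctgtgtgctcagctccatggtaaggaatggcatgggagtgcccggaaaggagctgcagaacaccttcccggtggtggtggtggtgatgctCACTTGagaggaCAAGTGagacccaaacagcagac
Clcn1, chr6:42286435-42286684 (plus strand): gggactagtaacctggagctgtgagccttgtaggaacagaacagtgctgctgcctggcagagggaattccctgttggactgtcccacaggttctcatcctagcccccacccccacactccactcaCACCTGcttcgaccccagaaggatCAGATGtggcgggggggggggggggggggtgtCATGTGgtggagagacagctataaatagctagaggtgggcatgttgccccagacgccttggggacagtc

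The windows were unlike in composition. The outer *Mbnl1* window has 38% of G and C with 1 E-box and no GC box. Its 2 matches to TATAAA overlap on opposite strands of 1 stretch. The inner window has 73.6% with 4 GC boxes, 3 of which overlap, and no E-box. The *Mbnl2* window has 57.2% of G and C with 1 GC box and no E-box. The *Clcn1* window has 3 E-boxes and the letters TATAAA, and the outermost *Celf2* window has 2 E-boxes, which are reverse complements of each other a few bases apart, and TATAAA. That *Celf2* start lies 113365 bases inside the end of the gene as the table gives it. The other 4 *Celf2* windows, not printed, lack TATAAA and have 47.2% to 82.8% of G and C. The window of the next start, with 47.2%, overlaps the printed one and holds the same 2 E-boxes, with 1 GC box. The window richest in G and C has 43 CG, 3 GC boxes and no E-box. Over 32851 RefSeq windows of this length, 66.2% held an E-box, 32.7% a GC box and 12.4% TATAAA, so that single matches are common. The letters are a description of the windows. Which start was used in these muscles was not measured, as the array gives 1 value per gene.

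Paralogs that are not tied to the disease gave no passing difference in 2 of 4 families. Of the other 4 CELF genes, 0 passed at an unadjusted p under 0.05 and 3 were lower, with a median log2 difference of -0.12. The one farthest from 0 was *Celf6*, at 4.78 (SD 0.17) in scramble and 4.51 (SD 0.32) in MYTHO-KD. The other 8 genes of the CLC chloride channel family were all lower than in scramble, with differences from -0.40 to -0.10 and a median of -0.19, against -0.01 over all probe sets, but 0 of 8 passed. The one farthest from 0, *Clcn6*, a transporter of endosomes, had 7.14 (SD 0.23) in scramble and 6.74 (SD 0.31) in MYTHO-KD. Among 9 genes of the *Eya* family and of the homeobox family of *Six5*, some of which control muscle transcription together, 1 passed: *Eya4* was lower by a log2 difference of -0.72 (10.92 to 10.20, unadjusted p of 0.0363, limma). Among 6 kinases related to DMPK, *Cdc42bpb* was higher (7.87 to 8.33, log2 difference 0.46, unadjusted p of 0.01) and *Rock2* lower (11.90 to 11.50, -0.40, unadjusted p of 0.0414). Of 6 genes for partners and substrates of DMPK, 1 passed, *Rac1*, a small GTPase (16.51 to 16.14, -0.37, unadjusted p of 0.0295). Beside these counts, 12.0% of all probe sets passed.

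Other RNA-binding proteins and kinases of the disease were read from a list of 23 genes. Of these, 4 passed at an unadjusted p under 0.05, 3 lower and 1 higher, where 12.0% of all probe sets did, and the median log2 difference was -0.05. *Rbfox1*, a splicing factor of muscle and brain that shares many target exons with MBNL proteins, was lower by as much as *Celf2*. Its average was 15.96 (SD 0.14) in scramble and 15.10 (SD 0.30) in MYTHO-KD, a log2 difference of -0.86 (standard error 0.184, adjusted p = 0.0844, limma). *Ptbp1*, a repressor of muscle and neuronal exons, was higher, from 6.51 (SD 0.59) to 7.51 (SD 0.27), a log2 difference of 1.00 (adjusted p = 0.157, limma). *Srsf2*, an SR splicing factor, was lower by a log2 difference of -0.54 (9.77 to 9.23, adjusted p = 0.165, limma). The fourth, *Ptbp2*, is outside the rule for named genes and was named after its values were seen (10.70 to 10.08, log2 difference -0.62, adjusted p = 0.21, limma). *Cnbp*, the gene of myotonic dystrophy type 2, had 14.74 (SD 0.12) in scramble and 14.40 (SD 0.18) in MYTHO-KD with an unadjusted p of 0.0563. It was named for its role.

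A list of 30 genes whose transcripts are misspliced in the disease gave 6 that passed, 4 higher and 2 lower, against the same 12.0% of all probe sets, at a median log2 difference of -0.01. *Tnnt2*, the cardiac troponin T that skeletal muscle makes early in development, was higher (5.94 to 6.72, log2 difference 0.78, unadjusted p of 0.00935). *Fhod1*, an actin-binding formin, was higher (8.69 to 9.34, 0.65, unadjusted p of 0.0142). *Capzb*, a subunit of the actin capping protein of the Z-disc, was lower (17.18 to 16.74, -0.44, unadjusted p of 0.016). At a minimum of 1.5-fold with that p, which 5.80% of all probe sets passed, 2 of the 30 genes remained and 2 of the 8 disease genes did, *Celf2* and *Clcn1*. Several transcripts of this list, such as *Atp2a1* at 19.93 (log2) with an SD of 0 in both groups, stood at the top of the scale, where a difference cannot be seen.

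Of 6 genes described as raised in muscle of the disease, 4 were higher and 2 lower. Of the 6, 2 passed, both higher, where 12.0% of all probe sets passed. *Tnfrsf12a*, the receptor Fn14 for the cytokine TWEAK, was higher, from 8.62 (SD 0.44) to 9.97 (SD 0.39), a log2 difference of 1.35 (standard error 0.252, adjusted p = 0.0553, limma). *Cdkn1a*, an inhibitor of the cell cycle, had 8.98 (SD 0.58) in scramble and 10.73 (SD 1.29) in MYTHO-KD, a log2 difference of 1.75 (adjusted p = 0.2, limma). The ligand gene *Tnfsf12* shares its probe set with *Tnfsf13*, and that probe set did not pass (log2 difference -0.11). *Twist1* was lower without passing (4.70 to 4.39, log2 difference -0.31). *Nkx2-5* (3.68 to 3.81), near the floor, and *Myog* (6.34 to 6.55) did not pass either.

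**Figure D4:**
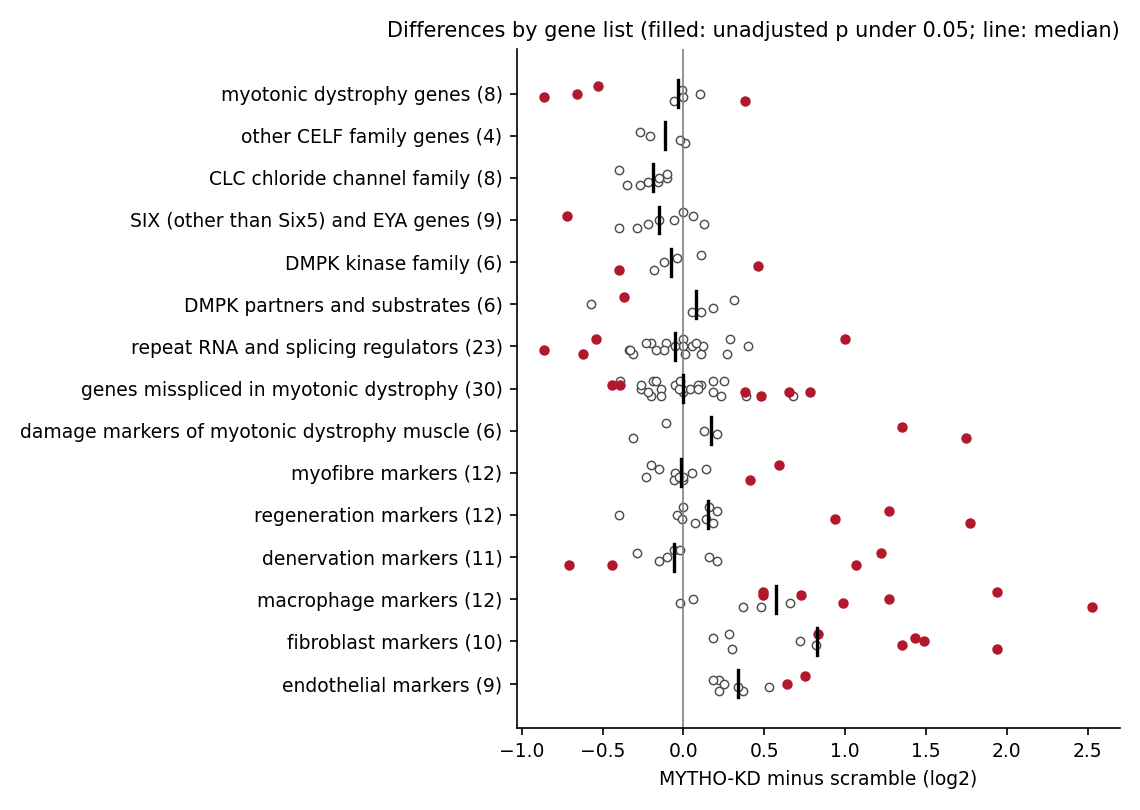
Log2 difference between MYTHO-KD and scramble (horizontal axis) of each gene of 15 lists, 1 point per gene, with the number of genes in brackets; filled points have an unadjusted p under 0.05 and vertical lines are medians. The median of the 8 disease genes is -0.04, and those of the macrophage (0.58) and fibroblast (0.83) markers lie farthest to the right.

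Of the transcripts that mark other cells of muscle, many macrophage, fibroblast and endothelial ones were higher in MYTHO-KD. The 12 myofibre markers, which define this tissue, stood between 17.58 and 19.93 (log2) in scramble. *Acta1* and *Myh4* were at 19.93 with an SD of 0 in both groups, the top of the scale, and several others lay close to it, so that a change of these markers could be hidden. *Myh1* was higher (17.58 to 18.17, unadjusted p of 0.00873), as was *Myh2* (19.50 to 19.91, unadjusted p of 0.0197), whose MYTHO-KD average with an SD of 0.01 lies next to the top. Of 12 macrophage markers 11 were higher and 7 passed, led by *Cd68*, *Lyz2* and *C1qb* (log2 differences 2.53, 1.94 and 1.27). The median log2 difference of this list was 0.58. Of 10 fibroblast markers all 10 were higher and 5 passed, led by *Bgn*, *Lum* and *Col3a1* (1.94, 1.49 and 1.43), with a median of 0.83. Of 9 endothelial markers all 9 were higher and 2 passed, *Kdr* and *Eng* (0.75 and 0.64), with a median of 0.34. Of 12 regeneration markers 8 were higher and 3 lower, and 3 passed, *Mymk*, *Vim* and *Myh3* (1.77, 0.94 and 1.27). *Myod1* was lower without passing (-0.40), and *Myh8* stood at the top of the scale in both groups. For all these lists, the share of all probe sets that passed was 12.0%. The higher macrophage, fibroblast and endothelial markers were seen in the same comparison as the lower *Mbnl1*, *Celf2* and *Clcn1* and the higher *Mbnl2*. Group averages cannot show whether they varied together over the muscles. The part of the marked cells in the differences of these members was not tested.

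*Clcn1* is known to fall when a muscle loses its nerve, and 11 genes of denervated muscle were read beside it. By sign 4 of the 11 were higher and 7 lower, with a median of -0.06. An unadjusted p under 0.05 was reached by 4, against 12.0% of all probe sets. Those that passed were *Chrna1* and *Runx1*, which were higher (log2 differences 1.07 and 1.22), and *Musk* (-0.71) and *Trim63* (-0.44), which were lower. *Trim63* was named after its values were seen. Of 7 Schwann cell and nerve markers 0 passed, and *Mbp* was farthest from 0 (8.53 in scramble, 8.11 in MYTHO-KD). The part of innervation in the difference of *Clcn1* was not tested.

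**Figure D5:**
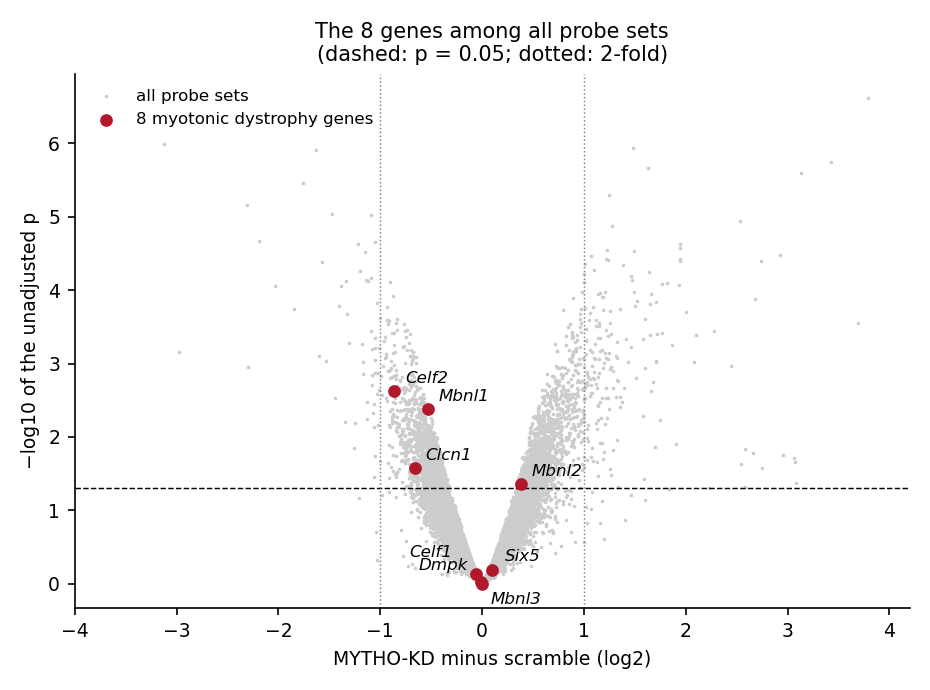
Log2 difference (horizontal axis) and −log10 of the unadjusted p (vertical axis) of all 22206 probe sets (grey) and of the 8 disease genes (red). *Celf2*, *Mbnl1*, *Clcn1* and *Mbnl2* lie above the dashed line of the unadjusted threshold and all 8 lie between the dotted lines at 2-fold.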

How the data were processed

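Total RNA of GAS muscle was hybridized by the authors to Clariom S Mouse arrays, 4 per group. The paper's methods name Affymetrix's Transcriptome Analysis Console, run at its defaults, and the submitters' processing notes name Affymetrix Expression Console, RMA and mm10. The deposited table of 28 columns gives for each of 22206 probe sets the authors' log2 average, SD and expressed mark per group, which were used, and the authors' fold change, p-value and false discovery rate, which were not. It holds 0 columns of single arrays, so limma's fit to arrays, planned at first, was replaced by the same moderated test from averages and SDs (limma 3.58.1, R 4.3.3; squeezeVar, 6 residual degrees of freedom, prior SD 0.284 with 5.85 degrees of freedom; two-sided; Benjamini-Hochberg). It was run beside limma's own fit on simulated independent arrays, which checks the calculation but not the kind of average or the pairing of legs. Which average the software took is not given in the sources used here, and if it was a robust one rather than a plain mean, the p-values may be too low. Both legs of a mouse were injected, but the test treats the groups as separate samples, and its p-values measure only the spread between these muscles. Arrays have no sequencing depth, and 4 per group limit the precision.

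The members, the 16 gene lists and the tests were chosen with earlier results of these data known. Genes were matched by symbol (178 of 178 list genes, 2 by an older symbol), with the brightest probe set for each. Named by rule are the members, the knockdown target and, in each list, up to 3 genes with the lowest unadjusted p under 0.05, or otherwise the one farthest from 0. Genes outside this rule are named as well, for example *Cnbp*, *Cdh5*, *Fbxo46*, *Atp2a1*, *Twist1* and *Myod1*. The alternatives were other variance models, a filter on dim probe sets, 1 probe set per symbol and other centring. Promoter windows and symbols are from RefSeq (GRCm38.p6), which held a window for 8 of 8 members.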

Additional observations from a re-analysis of the deposited data

How the results depend on the processing

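In the variance, filter and centring settings that were run, no gene of the 8 changed sign. *Dmpk* ranged from -0.02 to 0 on the log2 scale and *Mbnl3* from 0 to 0.04. The number that passed an unadjusted p under 0.05 was 4, or 3 without moderation and with unequal variances. The gene lost was *Clcn1*, whose log2 difference of -0.66 had an unadjusted p of 0.0764 without moderation and 0.0955 with unequal variances, since its own variance is larger than the one moderation draws it to. *Mbnl1* passed the adjustment in one setting, with an adjusted p of 0.0446 under a trend with robust fitting (0.129 to 0.282 in the others), and no other member did in any. *Celf2* ranged from 0.00113 to 0.0126 in its unadjusted p and *Mbnl2* from 0.0169 to 0.0489. *Six5* and *Mbnl3* were below the limit of the filter on dim probe sets. No member has a second probe set to compare. The number of probe sets with an adjusted p under 0.05 was 61, against 2 without moderation, 2 with unequal variances and 189 with a trend and robust fitting.

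Of the pairs, *Celf1* minus *Celf2* (0.80) had an adjusted p of 0.0788 without moderation and 0.174 with fully opposed arrays, and *Mbnl1* minus *Mbnl2* (-0.91) had 0.0732 with fully opposed arrays, a setting added after the data were seen that adds both standard errors up. With 1.5-fold as a further limit, the genes that passed went from 2 to 0 in the DMPK kinase family, from 1 to 0 among DMPK partners and substrates, from 6 to 2 among misspliced genes, from 2 to 1 among myofibre markers, from 7 to 5 among macrophage markers, from 4 to 3 among repeat RNA and splicing regulators and from 4 to 3 among denervation markers, because the limit is stricter. The counts of the other 9 lists stayed as they were.

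No paired analysis was possible because the table holds group averages: neither a replicate block for both legs of 1 mouse nor the removal of each replicate in turn was run.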
